A study of Mus musculus with 2 samples.

Results

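Non-sinusoidal endothelial cells were described in liver tumors of 2 groups of C57BL/6J mice. Such cells line vessels other than the liver sinusoids. The label is that of the rule, and several clusters of the picked barcodes, given below, had raised sinusoidal, leukocyte or epithelial genes. Barcodes were picked by transcript counts. They had at least 4 unique molecular identifiers (UMIs, each 1 captured transcript) of Pecam1, Cdh5, Kdr, Ptprb and Egfl7 together. They had at most 1 of Stab2 and Clec4g together, which mark sinusoidal endothelium. Barcodes also had at least 500 UMIs, at least 200 genes, at most 25% mitochondrial UMIs, at most 2 C1qa, C1qb and C1qc UMIs, at most 1 Cd3d, Cd3e and Cd3g UMI, and no Siglech or Cd79a. This gave 207 barcodes of 11451 within the cell limits (18657 in all) in the knockout library and 185 of 9853 (14289 in all) in the wild-type library.

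The knockout group, labelled FABP5 hKO, carries an Alb-CRE-ER recombinase, driven by the albumin promoter of hepatocytes and switched on by tamoxifen, that deletes Fabp5, a fatty acid binding protein. It was compared with WT littermates. Both groups received tamoxifen at 6 to 8 weeks of age (5 doses of 100 mg/kg, 3 days apart, each after a fast of 16 h), and from 2 weeks later both ate a CD-HFD (choline-deficient high-fat diet) for 15 months. Each group is 1 library of pooled tissue from 2 to 3 hepatocellular carcinomas, made with a 10x Genomics 3′ kit, so no test between groups was possible, and every interval given covers counting error only.

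Blood vessels of a healthy liver include fenestrated sinusoids, where scavenger receptors such as Stab2, Mrc1 and Lyve1 are made, and portal and central vessels with a continuous lining. In tumors, endothelial cells at the front of growing sprouts, called tip cells, respond to VEGF and make Esm1, Apln, Angpt2 and the Notch ligand Dll4, and the cells behind them lay down basement membrane. Endothelium of the central vein is known in mouse liver as the source of Rspo3 and Wnt9b, which set the WNT signal for neighboring hepatocytes.

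Promoters of 3 genes that the results turn on are shown, 250 bases before to 50 after the start of transcription. Igfbp3 encodes a secreted binder of insulin-like growth factors, Esm1 the proteoglycan endocan, and Apln the peptide apelin. They are RefSeq sequences of build GRCm38.p6, at chr11:7213874-7214173 (minus strand), chr13:113209409-113209708 (plus strand) and chrX:48034804-48035103 (minus strand). Capitals mark GGAA or its reverse complement TTCC, the core bound by ETS factors such as Erg and Fli1, which are abundant in endothelium.
Igfbp3: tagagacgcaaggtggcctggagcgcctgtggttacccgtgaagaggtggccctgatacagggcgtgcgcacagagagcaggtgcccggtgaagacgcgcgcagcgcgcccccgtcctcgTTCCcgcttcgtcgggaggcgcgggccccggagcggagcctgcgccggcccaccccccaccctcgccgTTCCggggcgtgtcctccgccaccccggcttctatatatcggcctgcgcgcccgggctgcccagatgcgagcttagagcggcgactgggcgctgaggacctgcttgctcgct
Esm1: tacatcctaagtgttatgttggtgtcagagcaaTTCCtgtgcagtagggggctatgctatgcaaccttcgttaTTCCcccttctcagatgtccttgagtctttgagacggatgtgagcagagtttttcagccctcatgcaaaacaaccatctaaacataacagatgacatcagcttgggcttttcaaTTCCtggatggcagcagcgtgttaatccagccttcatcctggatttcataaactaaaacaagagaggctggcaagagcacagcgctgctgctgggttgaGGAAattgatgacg
Apln: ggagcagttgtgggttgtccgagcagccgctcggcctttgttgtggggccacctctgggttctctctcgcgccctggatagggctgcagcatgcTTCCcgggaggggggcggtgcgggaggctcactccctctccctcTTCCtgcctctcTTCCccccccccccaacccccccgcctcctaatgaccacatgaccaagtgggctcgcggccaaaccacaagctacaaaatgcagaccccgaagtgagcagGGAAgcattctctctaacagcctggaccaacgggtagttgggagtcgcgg
The core occurred 2 times in the Igfbp3 window and 4 times each in those of Esm1 and Apln. Of 32851 promoters of 300 bases, 96.0% hold it on either strand, with a median of 3, so these letters describe the windows and set them apart from few others.

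The libraries differed in some general measures. The picked barcodes had a median of 4166 UMIs and 1978 genes in hKO and 3662 UMIs and 1747 genes in WT, with 935958 UMIs in all in hKO and 919988 in WT. The median mitochondrial share was 10.99% in hKO and 8.78% in WT. The deepest barcode held 15062 UMIs in hKO but 50112 in WT, which is 5.45% of the WT UMIs of these cells. The 12 hepatocyte marker genes made up 0.746% of UMIs in hKO and 0.283% in WT, and 7 erythroid genes 0.496% in hKO and 2.05% in WT. No barcode sequence was shared by the picked cells of the libraries (0, against 73 shared over all barcodes). In hepatocyte-marker barcodes the targeted gene Fabp5 had 11.7 CPM (counts per 1000000 UMIs) in hKO and 44.2 CPM in WT, and in the picked endothelial barcodes it had 28 UMIs (29.9 CPM) in hKO and 10 UMIs (10.9 CPM) in WT. Fabp5 is not targeted in endothelium by this design, and its level there was under the floor of 50 CPM used for calls.

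Endothelial genes that the rule did not use were found in part of the picked barcodes. With each barcode thinned to 1000 UMIs, the sialomucin Cd34 was detected in 28.9% of hKO and 13.1% of WT barcodes, against 0.119% of hKO and 0.194% of WT barcodes with T cell markers. The rule itself fixes the sum of the 5 endothelial genes, so it only describes the barcodes, with a median of 21 UMIs in hKO and 12 in WT. At the limit itself, 22 hKO and 37 WT barcodes had a sum of exactly 4, and 46 hKO and 76 WT barcodes just outside it had 3. Of barcodes with the endothelial sum, 161 hKO and 121 WT had no Stab2 or Clec4g UMI, 46 hKO and 64 WT had 1, and 20 hKO and 54 WT just outside had 2. The leukocyte gene Ptprc was detected in 41 hKO and 43 WT barcodes, and the 8 leukocyte markers made up 0.142% of UMIs in hKO and 0.243% in WT. The 8 cholangiocyte markers made up 0.00342% in hKO and 0.217% in WT, and the 12 stellate or fibroblast markers 0.00171% in hKO and 0.00283% in WT. Of the 8 cholangiocyte markers only 1 reached 50 CPM. The median barcode of each library held 0% of them, and the highest held 0.118% in hKO and 2.70% in WT.

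Grouped by expression (Leiden clustering of both libraries together, without the genes of the rule among the variable genes), the 392 barcodes fell into 8 clusters. Cluster 1 (129 barcodes) is called tip-like: 21 of 24 tip and angiogenic markers were raised in it over the other clusters. Of 14 capillary markers 7 were raised in it too, and the neutrophil genes S100a9, S100a8 and Retnlg were also among its 10 leading genes. A finer clustering, given below, divides these markers over several clusters. At least 10 UMIs of S100a8 and S100a9 were found in 3 of its hKO and 2 of its WT barcodes. Cluster 3 (52 barcodes) is called venous-like, with 17 of 20 venous markers raised and Rspo3 and Wnt9b among its leading genes. Of 18 sinusoidal markers 7 were raised in it too, among them Wnt2, another leading gene. Cluster 6 (31 barcodes) is called arterial-like, with 15 of 20 arterial markers raised and Nebl, Fbln5, Sema3g and Vegfc leading. Cluster 2 (59 barcodes) stayed unnamed; it was led by Adgrg6, an adhesion receptor, and Nrg1, a growth factor of the EGF family, and 11 of 18 sinusoidal markers were raised in it, as many as in cluster 5.

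The other 4 clusters had leukocyte, sinusoidal or epithelial genes in the lead. Cluster 4 (47 barcodes) was led by the antigen presentation genes H2-Ab1, H2-Eb1, Cd74 and H2-Aa, all 8 leukocyte markers were raised, and its median endothelial sum was 4. Cluster 5 (44 barcodes) was shallow, with a median of 1233.5 UMIs, and was led by the sinusoidal genes Lyve1, Dnase1l3 and Clec1b with cell cycle and erythroid genes. These leading genes divided by library (8 hKO and 36 WT barcodes). The cell cycle genes Cenpf and Birc5 had 488 and 390 CPM in hKO and 0 CPM in WT. Erythroid Alas2 had 0 CPM in hKO and 375 in WT, and Clec1b 0 in hKO and 309 in WT. Dnase1l3 had 48.8 CPM in hKO and 596 in WT, and Lyve1 1512 in hKO and 287 in WT. Cluster 7 (19 barcodes) was led by Spp1, with all 12 hepatocyte markers raised, but its libraries differed. Spp1 had 210 CPM in its 13 hKO barcodes and 21351 CPM in its 6 WT barcodes. Its next leading genes, Kcnma1 and Erbb4, had 0 CPM in hKO. Hepatocyte markers made up 4.59% of its UMIs in hKO and 1.16% in WT. Cluster 8 (11 barcodes) was led by monocyte genes such as Adgre4 and Ear2. Clusters 1, 2, 3 and 6, with a median endothelial sum of at least 18 each, are called the 4 high-sum clusters and hold 162 barcodes in hKO and 109 in WT. That sum is a value of the rule, so it does not support the label for them. Where 1 library supplies most of a cluster, the cluster may stand for that library and not for a cell type, and cluster sizes are given only as the number behind each value.

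**Figure D1:**
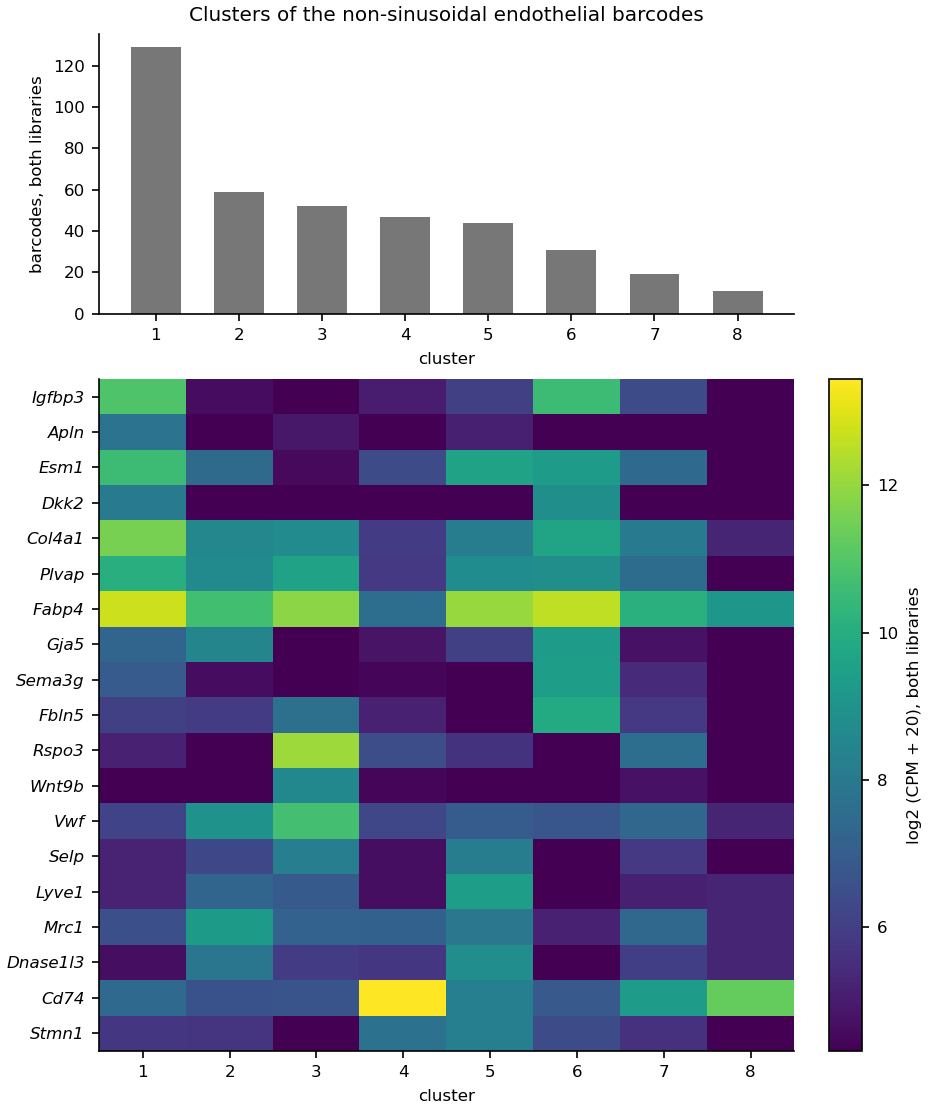
Number of picked barcodes in each cluster, both libraries together (top), and the level of 19 marker genes in each cluster as log2 of CPM plus 20, to be read along each row (bottom). Cluster 1 holds 129 barcodes with high Igfbp3, Esm1 and Col4a1, cluster 3 is high for Rspo3, Wnt9b and Vwf, cluster 6 for Sema3g and Fbln5, and cluster 4 for Cd74.

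The picked cells made up a like part of each library, 1.81% (95% Clopper-Pearson interval 1.57 to 2.07) of barcodes within the cell limits in hKO and 1.88% (1.62 to 2.17) in WT, a log2 ratio of −0.05 (−0.35 to 0.24). Their counterparts with the same endothelial limits but at least 2 Stab2 and Clec4g UMIs, here called sinusoidal-marker barcodes, numbered 306 in hKO (2.67%) and 884 in WT (8.97%). Of all endothelial barcodes, the non-sinusoidal ones were thus 40.4% (36.1 to 44.7) of 513 in hKO and 17.3% (15.1 to 19.7) of 1069 in WT. These shares come from the rule itself and are given as a description. With a Stab2 and Clec4g sum of 0 and at most 1 UMI of 5 other sinusoidal genes, they were 29.3% in hKO and 7.43% in WT.

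Over all picked barcodes, the library comparison gave higher tip, matrix and arterial genes and lower central-vein genes in hKO. A gene was called past the fold if either library held it at 50 CPM or more, its log2 ratio reached 1 or −1 and the exact conditional binomial 95% interval excluded 0. Genes that another cell class of the same library held at over 10 times the level were set aside, because free RNA in the droplets could supply them. Of 4527 genes at the floor, 235 (5.19%) were past the fold and higher in hKO and 201 (4.44%) were lower, 9.63% in either direction. A further 71 higher and 161 lower genes were set aside. The median log2 ratio over all genes at the floor in a library was −0.09.

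Of the label's own markers, Pecam1 and Cdh5 belong to the rule. Pecam1, the adhesion molecule CD31, had 1216 CPM in hKO and 923 in WT, and Cdh5, VE-cadherin, 855 in hKO and 466 in WT. Igfbp3 had 1272 UMIs in hKO (1359 CPM, exact Poisson interval 1285 to 1436) against 74 UMIs in WT (80.4 CPM, 63.2 to 101), a log2 ratio hKO over WT of 4.08 (3.74 to 4.44). Those UMIs came from 88 of the hKO barcodes and 14 of the WT barcodes, with at most 94 in 1 hKO barcode and 13 in 1 WT barcode. Apln had 119 UMIs in hKO (127 CPM, 105 to 152) against 3 in WT (3.26 CPM, 0.672 to 9.53), a log2 ratio of 5.29 (3.70 to 7.58). All 3 WT Apln UMIs were in 1 barcode, against 27 hKO barcodes with a UMI. Vwf, the platelet-binding glycoprotein of veins and large vessels, ran the other way, with 230 UMIs in hKO (246 CPM, 215 to 279.6) and 450 in WT (489 CPM, 445 to 536). Its log2 ratio of −0.99 (−1.23 to −0.76) was just short of the fold.

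The level of these markers turned on which barcodes were counted. Over 15 alternative settings the Igfbp3 log2 ratio stayed between 2.42 and 4.55 and the Apln ratio between 2.04 and 5.34, each past the fold. Vwf ranged from −1.65 to 1.36, and in 7 of the 15 it was past the fold and lower in hKO. It was at 0.06 with the stricter sinusoidal limit and at 1.36 in cluster 1 alone, where it had 27 UMIs in hKO and 3 in WT. In sinusoidal-marker barcodes Igfbp3 had 78.4 CPM in hKO and 7.32 in WT, and Apln 21.99 CPM in hKO and 3.39 in WT. There too both were higher in hKO, with hKO levels lower than in the non-sinusoidal barcodes, and Apln was under the floor of 50 CPM.

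**Figure D2:**
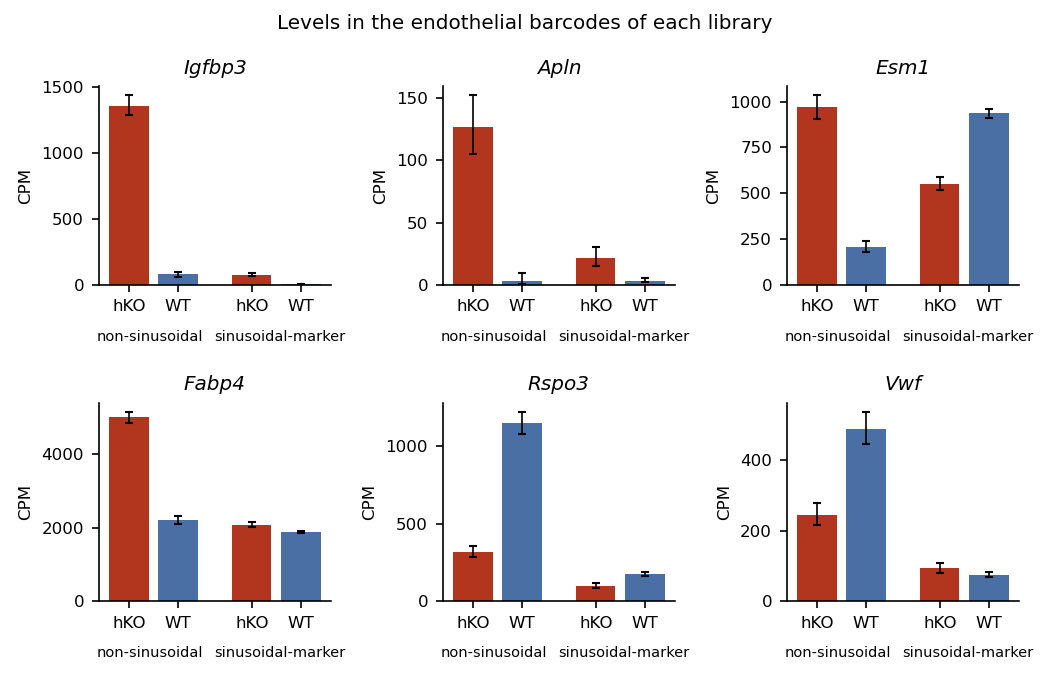
Level of 6 genes in CPM in non-sinusoidal and sinusoidal-marker endothelial barcodes of the hKO and the WT library; bars are sums over the barcodes of 1 library and error bars exact Poisson 95% intervals. Igfbp3 stood at 1359 CPM in non-sinusoidal hKO barcodes against 80.4 in WT, and Rspo3 at 319 CPM in hKO against 1146 in WT.

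As shares of cells, with each barcode thinned to 1000 UMIs (204 hKO and 168 WT barcodes, after 3 hKO and 17 WT barcodes that were too shallow), Igfbp3 was detected in 37.3% (30.6 to 44.3) of hKO and 4.76% (2.08 to 9.17) of WT barcodes. Esm1 was detected in 33.3% of hKO and 13.7% of WT barcodes, and the WNT inhibitor Dkk2 in 12.3% of hKO and 0.595% of WT barcodes. Apln was found in 4.90% of hKO barcodes and in 0% of WT barcodes, where a count of 0 allows up to 1.79%. Rspo3 was found in 6.86% (3.80 to 11.2) of hKO and 22.02% (16.0 to 29.1) of WT barcodes, and Vwf in 13.7% of hKO and 23.8% of WT barcodes. The Igfbp3, Esm1, Dkk2 and Apln shares were thus the higher ones in hKO, and the Rspo3 and Vwf shares the lower ones, in 1 library each. Without thinning the hKO shares were 42.5% for Igfbp3, 47.8% for Esm1, 21.7% for Dkk2, 13.04% for Apln, 9.66% for Rspo3 and 23.7% for Vwf. The WT shares were then 7.57% for Igfbp3, 24.9% for Esm1, 1.62% for Dkk2, 0.541% for Apln, 20.5% for Rspo3 and 36.2% for Vwf. Barcodes with T cell markers, which should lack these genes, gave a thinned share of at most 1.90% in hKO and 4.18% in WT, both for Esm1 (848 hKO barcodes at a median of 3983.5 UMIs and 1033 WT barcodes at 4010).

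The 12 genes with the highest ratios included several that act between cells. Rbp7, an intracellular retinol carrier, had 208 UMIs (222 CPM) in hKO and 2 (2.17 CPM) in WT, a log2 ratio of 6.68 (4.80 to 9.73). Dkk2 had 201 UMIs (215 CPM) in hKO and 3 (3.26 CPM) in WT, a log2 ratio of 6.04 (4.47 to 8.33). Piezo2, a stretch-gated ion channel, had 216 UMIs in hKO and 19 in WT, a log2 ratio of 3.48 (2.80 to 4.24). Aplnr, the receptor of apelin, had 58 UMIs in hKO and 7 in WT, a log2 ratio of 3.03 (1.89 to 4.40), so that ligand and receptor were both higher in hKO. Unc5b, a netrin receptor of sprouting vessels, had 85 UMIs in hKO and 12 in WT (2.80), Sema3g, a semaphorin of arterial endothelium, 131 in hKO and 18 in WT (2.84), and Stc1, a secreted glycoprotein, 106 in hKO and 17 in WT (2.62). Col8a1 (3.22), a collagen of vessel walls, Efr3b (3.03) and Apold1 (2.81), an endothelial early-response gene, complete the 12 with Igfbp3 and Apln.

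Of these 12 genes, 7 stayed past the fold under all 15 alternatives: Rbp7, Dkk2, Apln, Igfbp3, Piezo2, Aplnr and Stc1. With cluster 1 alone, Col8a1 (0.52), Efr3b (0.52) and Unc5b (0.85) fell short of the fold and Sema3g had a log2 ratio of −0.09. In sinusoidal-marker barcodes Rbp7 had 17.2 CPM in hKO and 0.357 CPM in WT (2 UMIs), a log2 ratio of 5.59, while Dkk2 had 7.13 CPM in hKO and 5.72 in WT there (0.32). Rbp7 was thus higher in hKO in both kinds of endothelial barcode, and Dkk2 was near 0 on the log2 scale in sinusoidal-marker barcodes. Both genes were under the floor of 50 CPM in sinusoidal-marker barcodes, so neither could be called there.

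The 12 genes with the lowest ratios were led by transcripts of cluster 3. Sntg1, a syntrophin, had 34 UMIs (36.3 CPM) in hKO and 499 (542 CPM) in WT, a log2 ratio of −3.90 (−4.45 to −3.40), from 7 hKO and 25 WT barcodes. Pcdh9, a protocadherin, had 106 UMIs in hKO and 636 in WT, a log2 ratio of −2.61 (−2.92 to −2.31), from 12 hKO and 29 WT barcodes. Pcdh9 stayed past the fold under all 15 alternatives and Sntg1 under the 14 that gave it a value, cluster 1 having none. Adamtsl1 (−3.07), Col6a3 (−2.72) and Wnt9b (−2.24) also led or stood among the leading genes of that cluster, and with the stricter sinusoidal limit Adamtsl1 was at −0.76 and Wnt9b at −0.12. Il33, an alarmin, had 13 UMIs in hKO and 62 in WT (−2.28), and −0.76 with that stricter limit.

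Other genes of the low end moved in sinusoidal-marker barcodes too or went with other cells. Zbtb16, a transcription factor that glucocorticoids raise, had 13 UMIs (13.9 CPM) in hKO and 149 (162 CPM) in WT, a log2 ratio of −3.54 (−4.49 to −2.73). In sinusoidal-marker barcodes it had 2.97 CPM in hKO and 138 CPM in WT, a log2 ratio of −5.54. In 4 alternatives, the 4 high-sum clusters among them, it was set aside. Rtn1, a reticulon, was at −2.40, and at 0.37 in barcodes without Ptprc and with at most 1 myeloid UMI. Cyp7b1, an oxysterol hydroxylase, was at −2.13, and at −0.56 in the 4 high-sum clusters, while Stau2 (−2.44), an RNA-binding protein, lost its call in 8 of 15 alternatives. Mpp6 (−2.22), which lost its call in 4 alternatives, and Myrip (−2.32), which lost it in 2, complete the 12.

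**Figure D3:**
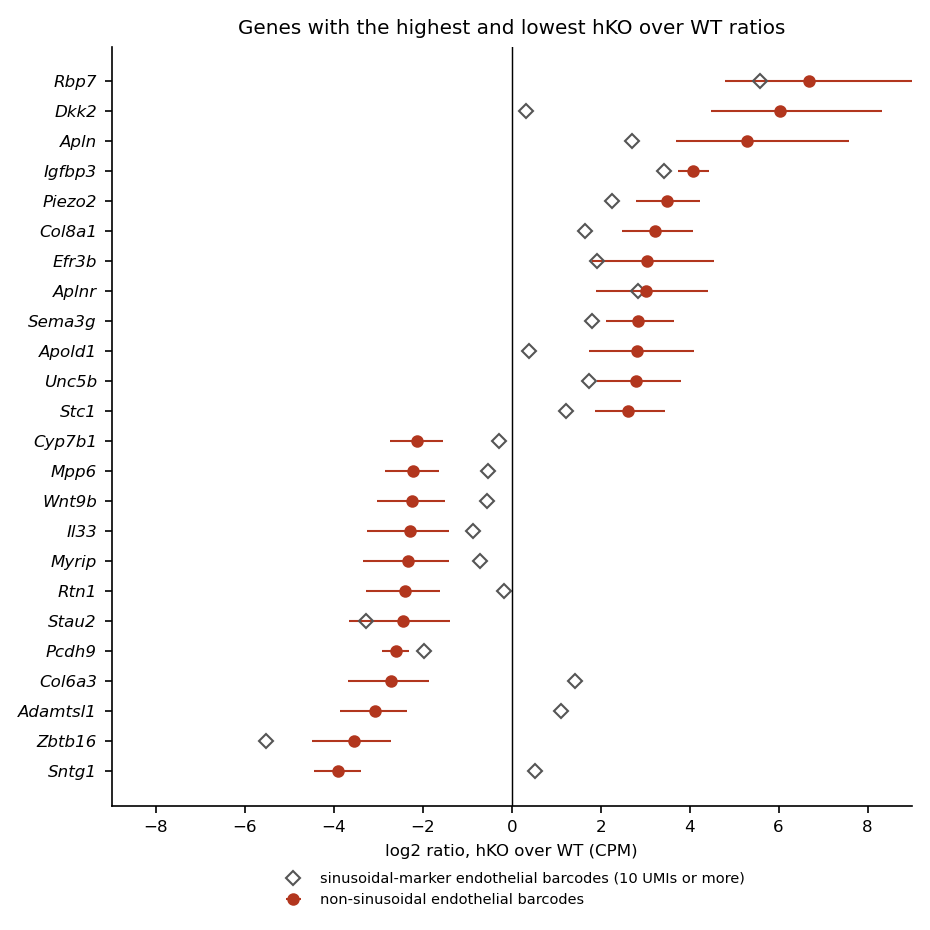
log2 ratio, hKO over WT, of the 12 genes with the highest and the 12 with the lowest values among those past the fold; filled circles are non-sinusoidal barcodes with exact 95% counting intervals (the interval of Rbp7 runs past the axis), open diamonds sinusoidal-marker barcodes. Sntg1, Adamtsl1 and Col6a3 lie below 0 in non-sinusoidal and above 0 in sinusoidal-marker barcodes, and Rbp7 and Igfbp3 lie above 0 in both.

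Tip and angiogenic genes were higher in hKO as a list. Of 24 members, 18 reached the floor of 50 CPM, 14 were past the fold and higher, and none was lower. Over all genes at the floor 5.19% were higher and 4.44% lower. The median log2 ratio of the list was 1.86 against −0.09 over all genes. Esm1 had 906 UMIs (968 CPM) in hKO and 191 (208 CPM) in WT, a log2 ratio of 2.22 (1.99 to 2.45), detected in 99 hKO and 46 WT barcodes. Angpt2, the TIE2 ligand of remodeling vessels, had 90 UMIs in hKO and 22 in WT (2.01), and Dll4 155 in hKO and 38 in WT (2.00, 1.48 to 2.56). Pdgfb, which recruits pericytes, had 171 UMIs in hKO and 57 in WT (1.56), and Plvap, the diaphragm protein of fenestrae, 699 in hKO and 325 in WT (1.08). Cxcr4, the CXCL12 receptor, had 137 UMIs in hKO and 23 in WT (2.55) but was set aside, since another cell class holds it at over 10 times the level. Plvap lost its call in 5 of 15 alternatives, with 0.56 in the 4 high-sum clusters, and Pdgfb was at 0.27 in cluster 1 alone. Insr (0.39), Hspg2 (0.82) and Trp53i11 (0.93) were not past the fold.

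Between 8 and 19 members of the tip list were past the fold and higher in hKO over the 15 alternatives. The lowest count, 8 of 22 at the floor with a median of 0.66 and 1 member lower, came from cluster 1 alone, and the 4 high-sum clusters gave 11 of 18 with a median of 1.31. With cluster 1 alone 4.02% of genes at the floor were higher and 7.16% lower, and in the 4 high-sum clusters 4.8% were higher. In sinusoidal-marker barcodes 1 of 12 members at the floor was higher and none lower, where 1.09% of all genes were higher and 1.14% lower. Esm1, with 552 CPM in hKO and 936 CPM in WT there, had a log2 ratio of −0.76, the other way from the non-sinusoidal barcodes. T-cell-marker barcodes held Esm1 at 17.9 CPM in hKO and 49.0 CPM in WT.

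Basement membrane and matrix genes, of which Col4a1, Col4a2 and Nid2 also stand in the tip list and Fbln5 and Mgp in the arterial one, followed the same direction. Of 20 members at the floor 10 were higher in hKO and 1, Mgp, was lower, with a median log2 ratio of 0.93. Over all genes 5.19% were higher and 4.44% lower. Sparc, a matrix glycoprotein that binds collagen, had 1882 UMIs (2011 CPM) in hKO and 571 (621 CPM) in WT, a log2 ratio of 1.70 (1.56 to 1.83). The type IV collagen chain gene Col4a1 had 1647 UMIs in hKO and 491 in WT, 1.72 (1.57 to 1.87), and its partner Col4a2 866 in hKO and 315 in WT, 1.43 (1.25 to 1.62). Nid2 (2.14), Col15a1 (1.72) and Fbln5 (1.55) were past the fold as well, while Timp3 (0.84), an inhibitor of metalloproteinases, was not. Within cluster 1 alone 1 of 22 members was higher and 2 were lower, with a median of 0.08, with Col4a1 at 0.25, Sparc at 0.68, Nid2 at 0.31 and Col15a1 at −0.11. In that cluster 4.02% of all genes were higher and 7.16% lower. In the 4 high-sum clusters 7 of 22 members were higher and 2 lower, with a median of 0.61 and Col4a2 at 0.91. There 4.8% of all genes were higher and 5.66% lower.

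Among arterial genes 8 of 14 at the floor were higher in hKO and 1 was lower, with a median log2 ratio of 1.24, where 5.19% of all genes were higher. In cluster 1 alone the list ran the other way, with 1 of 15 higher and 5 lower and a median of −0.09. There 4.02% of all genes were higher and 7.16% lower. The 4 high-sum clusters gave 5 of 15 higher and 2 lower, with a median of 0.82. In those clusters 4.8% of all genes were higher and 5.66% lower. Vegfc, a ligand of VEGF receptors, had 468 UMIs in hKO and 151 in WT, 1.61 (1.34 to 1.88). Efnb2, the ephrin that marks arteries, had 551 UMIs in hKO and 182 in WT, 1.57 (1.33 to 1.82), and the gap junction gene Gja5 171 in hKO and 70 in WT, 1.26 (0.85 to 1.69). Gja5 was at 0.82 in the 4 high-sum clusters, Efnb2 at 0.32 and Vegfc at 0.86 in cluster 1 alone, and Fbln5 at 0.98 with an endothelial sum of at least 8. Sox17 (1.24), an arterial transcription factor, lost its call in 4 alternatives and stood at −0.58 in cluster 1. Mgp, an inhibitor of calcification, had 58 UMIs in hKO and 147 in WT (−1.37), but 4.27 under the stricter sinusoidal limit. Jag1 (0.34), Hey1 (0.68), Eln (−0.82) and Ltbp4 (0.33) were not past the fold.

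Venous genes ran the other way, with 0 of 16 at the floor higher and 4 lower in hKO and a median log2 ratio of −0.52. Over all genes 5.19% were higher and 4.44% lower. Rspo3 had 299 UMIs (319 CPM) in hKO and 1054 (1146 CPM) in WT, a log2 ratio of −1.84 (−2.03 to −1.66), from 20 hKO and 38 WT barcodes. Wnt9b had 19 UMIs in hKO and 88 in WT, −2.24 (−3.03 to −1.51), Il1r1, the interleukin 1 receptor, 99 in hKO and 309 in WT (−1.67), and Lhx6 18 in hKO and 52 in WT (−1.56). Other members did not pass: Nr2f2, the venous fate factor, had 207 UMIs in hKO and 300 in WT (−0.56), Ephb4, the receptor of ephrin-B2, 159 in hKO and 149 in WT (0.07), and Selp, P-selectin, 55 in hKO and 75 in WT (−0.47). In the 4 high-sum clusters 10 of 17 venous members were lower and none was higher (median −1.19), where 5.66% of all genes were lower. Cluster 1 alone had 1 of 12 higher and 3 lower, but the median was 0.80, with 8 of 12 ratios above 0. In that cluster 4.02% of all genes were higher and 7.16% lower. Il1r1 stood at 1.08 in cluster 1 alone, and Lhx6 at −0.05 under the stricter sinusoidal limit.

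Capillary genes and genes of fatty acid handling share their main members. Fabp4, the fatty acid binding protein of capillary endothelium, had 4690 UMIs (5011 CPM) in hKO and 2036 (2213 CPM) in WT, a log2 ratio of 1.18 (1.10 to 1.25), in 182 hKO and 133 WT barcodes. Cd36, a fatty acid transporter, had 757 UMIs in hKO and 335 in WT, 1.15 (0.96 to 1.34), and Gpihbp1, which carries lipoprotein lipase to the vessel lumen, 886 in hKO and 493 in WT, 0.82 (0.66 to 0.98). In sinusoidal-marker barcodes Fabp4 had 2082 CPM in hKO and 1885 CPM in WT, and Cd36 1409 CPM in hKO and 1158 CPM in WT. Of 10 capillary members 4 were higher in hKO and none lower (median 0.80), and of 11 fatty acid members 3 were higher and none lower (median 0.82), where 5.19% of all genes were higher. In the 4 high-sum clusters 1 of 10 capillary members was higher and 1 lower (median 0.39), and 1 of 11 fatty acid members was higher (median 0.50). There 4.8% of all genes were higher and 5.66% lower. With cluster 1 alone none of 10 capillary members was higher and 2 were lower (median −0.01), and 1 of 12 fatty acid members was higher (median −0.01). In that cluster 4.02% of all genes were higher and 7.16% lower. Fabp4 fell short of the fold in 4 alternatives, at 0.78 in the 4 high-sum clusters and 0.61 in cluster 1, where Cd36 was at −0.0025. Cd36 lost its call in 4 alternatives as well, with 0.81 in the 4 high-sum clusters. Fabp1, a hepatocyte gene, had 262 UMIs in hKO and 58 in WT and was set aside. Hepatocyte markers took a larger share of UMIs in hKO than in WT, as given above, and their part in the other values was not tested.

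**Figure D4:**
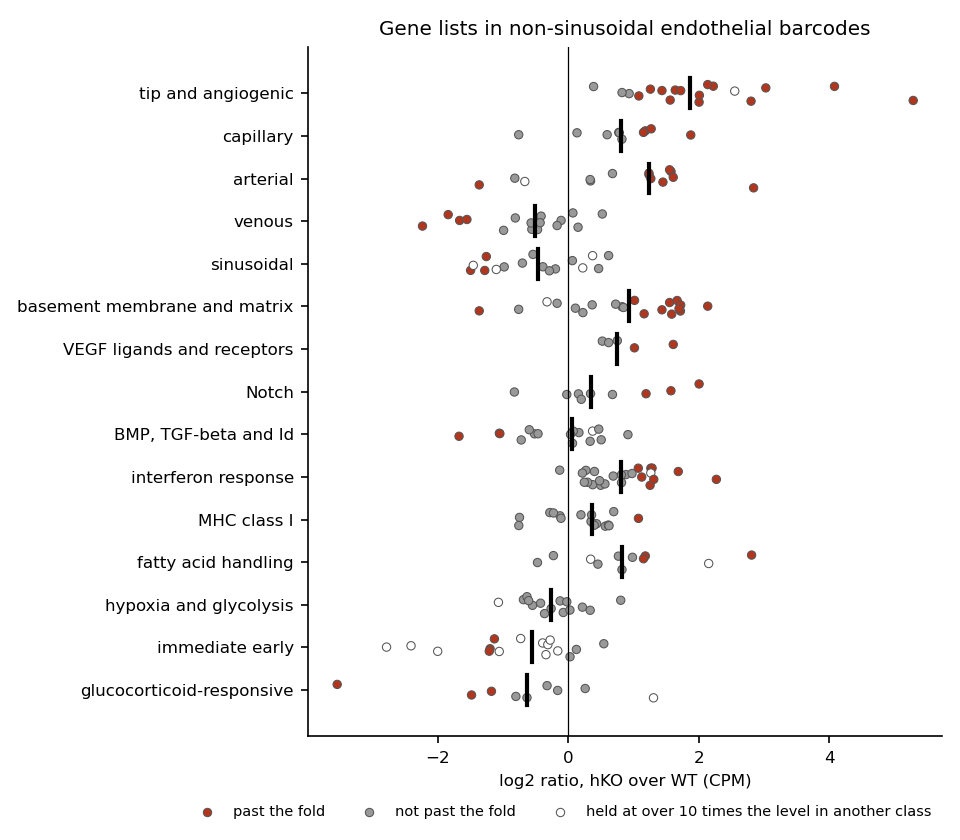
log2 ratio, hKO over WT, of each member at 50 CPM or more of 15 gene lists; red points are past the fold, gray points are not, white points were set aside because another cell class held over 10 times the level, and black lines are medians. The tip and angiogenic median is 1.86 and the venous median −0.52, while hypoxia and glycolysis, with 1 member past the fold but set aside, has a median of −0.26.

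Several genes that all endothelium shares were higher in hKO as well. Of 20 pan-endothelial genes outside the rule, 9 were higher in hKO and none lower, with a median of 0.79. Over all genes 5.19% were higher and 4.44% lower. Cd93 had 551 UMIs in hKO and 139 in WT, 1.96 (1.69 to 2.24), Cd34 365 in hKO and 110 in WT, 1.71 (1.39 to 2.03), and the transcription factor Sox18 261 in hKO and 89 in WT, 1.53 (1.18 to 1.89). Eng (0.07) and Tek (−0.62), the angiopoietin receptor, were not past the fold. With cluster 1 alone Cd93 was at 0.75 and Cd34 at 0.48, and after thinning Sox18 was at 0.29. In the 4 high-sum clusters 3 of 20 were higher and 1 lower, with a median of 0.33, where 4.8% of all genes were higher and 5.66% lower. In sinusoidal-marker barcodes 1 of 20 was higher with a median of −0.10, where 1.09% of all genes were higher. The other 4 clusters held 45 hKO and 76 WT barcodes, and their part in the result was not tested.

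Signals that shape vessels were mixed, where 5.19% of all genes were higher in hKO and 4.44% lower. Of VEGF ligands and receptors outside the rule 2 of 5 were higher, Vegfc and the receptor Flt1, which had 975 UMIs in hKO and 475 in WT (1.01) and lost its call in 8 of 15 alternatives. Nrp1, a VEGF co-receptor, had 804 UMIs in hKO and 470 in WT (0.75). In the Notch list 3 of 9 were higher, Dll4, the receptor Notch4 (1.57, 1.05 to 2.12) and the feedback target Nrarp (1.19, 0.53 to 1.88), while the receptor Notch1 (0.15), the target Hes1 (0.20) and the DNA-binding partner Rbpj (−0.83) were not past the fold. In the BMP, TGF-beta and Id list none of 16 was higher and 3 were lower (median 0.05), among them Id2, an inhibitor of helix-loop-helix factors, with 99 UMIs in hKO and 311 in WT, −1.68 (−2.02 to −1.35). Id2 was at 0.19 and Notch4 at 0.58 in cluster 1 alone, and Nrarp at 0.77 in the 4 high-sum clusters. Smad6, an inhibitory SMAD, was at −1.05, and −0.82 with a mitochondrial limit of 10%, and Id3 at −0.72. Tgfbr1, a TGF-beta receptor, had 65 UMIs in hKO and 133 in WT (−1.06) and lost its call in 7 of 15 alternatives.

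Angiocrine factors are those that endothelium secretes to neighboring cells. Of 16 at the floor, 6 were higher in hKO and 3 were lower, where 5.19% of all genes were higher and 4.44% lower. The higher ones were Dkk2, Apln, Angpt2, Pdgfb, Inhbb, an activin subunit, and Pdgfd, a PDGF ligand with 720 UMIs in hKO and 260 in WT, 1.44 (1.24 to 1.65). The lower ones were the WNT pathway ligands Rspo3, Wnt9b and Wnt2, the last with 36 UMIs in hKO and 100 in WT, −1.50 (−2.09 to −0.94). Under the stricter sinusoidal limit Wnt2 stood at 1.27 (−1.12 to 4.57) and Wnt9b at −0.12, and Pdgfd at 0.18 in cluster 1 alone.

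The clusters were built from the same expression values, so levels within them describe and do not test. In cluster 1 (99 hKO and 30 WT barcodes) Igfbp3 had 1082 UMIs (2387 CPM) in hKO and 58 (447 CPM) in WT, a log2 ratio of 2.42 (2.03 to 2.82). In cluster 6 (27 hKO and 4 WT barcodes) it had 172 UMIs in hKO and 16 in WT, 0.42 (−0.32 to 1.26), and in cluster 3 none in either library. Apln had 118 UMIs in cluster 1 of hKO and 0 of WT, which with the WT count of 0 set to 3 puts the log2 ratio at 3.49 or more. Dkk2 in cluster 1 had 146 UMIs in hKO and 2 in WT, 4.38 (2.51 to 7.44), and Esm1 790 in hKO and 98 in WT, 1.20 (0.90 to 1.52). Fabp4 there had 3386 UMIs (7470.1 CPM) in hKO and 634 (4891 CPM) in WT, 0.61 (0.49 to 0.74).

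Within cluster 3 (17 hKO and 35 WT barcodes), Rspo3 had 269 UMIs (3285 CPM) in hKO and 1023 (4903 CPM) in WT, a log2 ratio of −0.58 (−0.78 to −0.38), smaller than over all picked barcodes. Wnt9b there had 18 UMIs in hKO and 87 in WT, −0.92 (−1.74 to −0.18), and Vwf 125 in hKO and 357 in WT, −0.16 (−0.47 to 0.13). These 3 ratios were closer to 0 within the cluster than over all picked barcodes.

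**Figure D5:**
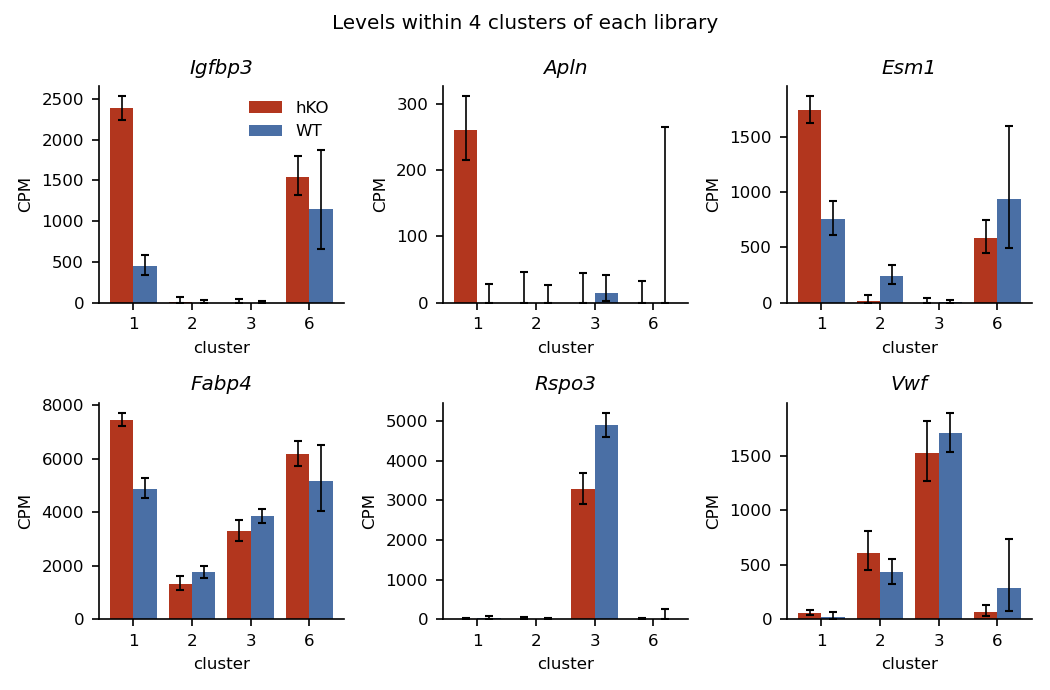
Level of 6 genes in CPM within clusters 1, 2, 3 and 6 of the hKO and the WT library, with exact Poisson 95% intervals. Igfbp3 in cluster 1 stands at 2387 CPM in hKO against 447 in WT, and Rspo3 in cluster 3 at 3285 CPM in hKO against 4903 in WT.

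Beside sinusoidal-marker barcodes, a contrast that the rule itself uses, 97 of 3804 genes (2.55%) were past the fold and higher in the non-sinusoidal barcodes of both libraries, and 121 (3.18%) were lower. Nothing is read from these counts. Among the 12 highest, Sparcl1, a matrix protein of the SPARC family, had 54.5 CPM in non-sinusoidal and 2.38 in sinusoidal-marker barcodes of hKO, and 92.4 against 2.86 in WT. Fbln5, an elastic fiber protein, had 175 CPM against 12.5 in hKO and 59.8 against 4.29 in WT. Mgp had 62.0 CPM against 4.75 in hKO and 160 CPM against 13.4 in WT, and the serine protease Prss23 113 CPM against 17.8 in hKO and 88.0 against 3.93 in WT. Stard13, Tgfb2, Igfbp3, Ccser1, Rassf9, Tspan13, Fstl1 and Dnm3 complete the list. Between the libraries, Igfbp3, Fbln5 and Mgp were past the fold and the other 9 were not, with log2 ratios hKO over WT from −0.76 (−1.29 to −0.24) for Sparcl1 to 0.36 (−0.07 to 0.80) for Prss23.

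At the low end stood other sinusoidal genes. The barcodes were split on Stab2 and Clec4g, so genes made in the same cells are lower by design, and these values only describe the split. The mannose receptor Mrc1 had 103 CPM in non-sinusoidal and 1127 CPM in sinusoidal-marker barcodes of hKO, and 221 against 1652 CPM in WT. The hyaluronan receptor Lyve1 had 68.4 CPM against 505 in hKO and 58.7 against 616 in WT, and Fcgr2b, an inhibitory Fc receptor, 95.1 against 716 in hKO and 188 against 1041 in WT. Bmp2, Hgf, Dnase1l3, Clec1b, Gatm, Aass, Adam23, Csmd1 and Col13a1 were lower too. Of 17 sinusoidal members at the floor 14 were lower in both libraries, with a median log2 ratio, non-sinusoidal over sinusoidal-marker, of −2.36 in hKO and −2.22 in WT.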

How the data were processed

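Both libraries were deposited as filtered matrices of counts, whole numbers of UMIs per gene and barcode with no normalization, made by the authors with Cell Ranger 7.1.0, per the file headers. The submitters' processing notes list Cell Ranger, R 3.0, Seurat 3 and the mouse build mm9, and no source used here names the gene annotation. Of 32285 features, 38 symbols belong to more than 1 feature ID. Depth is given with the results.

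UMIs were summed per gene over the chosen barcodes of a library and scaled to CPM. Exact Poisson, Clopper-Pearson and conditional binomial intervals cover counting error only, since each group is 1 library of pooled tumors. A gene was past the fold if either library held it at 50 CPM or more, its log2 ratio reached 1 or −1 and the 95% interval excluded 0. It was set aside where 1 of 13 other cell classes of the same library held over 10 times its level. A count of 0 was set to 3 for a ratio.

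The text names the label's markers, Fabp5, the 12 highest and 12 lowest genes (without mitochondrial, ribosomal, hemoglobin, immunoglobulin, T cell receptor, unnamed-transcript and sex-linked marker genes), and 2 to 4 members of each list by level and by ratio. Further members of several lists were named after their values were seen. The members, the 47 lists (583 genes, 2 without a feature) and the limits were chosen with earlier results of these data known.

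Clusters came from scanpy 1.11.5 (Leiden resolution 0.5, 1500 variable genes, 20 principal components, 10 neighbors). Doublets were kept, and an alternative removed those with high Scrublet scores. Other tools were Python 3.11.15, scipy 1.17.1, numpy 2.4.6, pandas 2.3.3 and matplotlib 3.10.9. The code was tested on simulated data. Alternatives changed the scale, the limits on barcodes, the depth, the floor and the clusters used.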

Additional observations from a re-analysis of the deposited data

Results flagged for a closer look

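Only named genes past the fold in non-sinusoidal barcodes and at 50 CPM in sinusoidal-marker ones were screened for opposite directions. For 5 of them the log2 ratio of hKO over WT ran in opposite directions in the 2 kinds of barcode, each with a counting interval that excludes 0. Esm1 was at 2.22 in non-sinusoidal and −0.76 in sinusoidal-marker barcodes. In non-sinusoidal barcodes Dll4 was at 2.00, Angpt2 at 2.01 and the growth factor Pdgfd at 1.44, and in sinusoidal-marker barcodes Dll4 was at −0.34, Angpt2 at −0.40 and Pdgfd at −0.46. Sntg1 ran the reverse way, at −3.90 in non-sinusoidal and 0.53 in sinusoidal-marker barcodes. With 1 library per group the difference was not tested.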

How the results depend on the processing

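No paired analysis was possible because each group is 1 library. The settings with clusters 1, 2, 3 and 6 alone, cluster 1 alone, a mitochondrial limit of 50% and leaving out the deepest barcode of each library, were chosen after seeing the data. Of the summary values 87 held and 25 moved by more than their limits; the cause was not tested. The share of endothelial barcodes that were non-sinusoidal was 47.6% in hKO and 13.6% in WT with a mitochondrial limit of 10%, 29.3% in hKO and 7.43% in WT with the stricter sinusoidal limit, and 34.6% in hKO and 10.98% in WT in the 4 high-sum clusters. In WT alone it moved to 11.7% with an endothelial sum of at least 8, 15.0% without Ptprc and myeloid barcodes, and 20.6% with a mitochondrial limit of 50%. The log2 ratio of the libraries' shares was 0.40 with an endothelial sum of at least 8, 0.62 with the stricter sinusoidal limit, 0.35 in the 4 high-sum clusters and −0.48 with a mitochondrial limit of 50%. Genes past the fold numbered 419 higher and 385 lower in hKO with the stricter sinusoidal limit and 356 higher and 457 lower with a floor of 20 CPM; cluster 1 alone gave 319 lower genes and 8 higher tip members. Against sinusoidal-marker barcodes, 219 genes were lower with the stricter sinusoidal limit and 204 higher with the floor of 20 CPM. Without thinning, Apln was detected in 13.04% of hKO barcodes and Vwf in 23.7% of hKO and 36.2% of WT barcodes. Resolution 1.0 gave 13 clusters. Of 24 tip markers, 20 were raised in a cluster of 44 barcodes there (36 hKO and 8 WT). Another, of 31 barcodes (27 hKO and 4 WT), was led by Dkk2 and Rbp7, with 10 tip and 7 capillary markers raised. A further cluster of 5 barcodes had all 8 neutrophil markers raised.

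Among named genes 27 log2 ratios changed sign where the gene was past the fold in the reported or the alternative setting. Ratios that changed sign without a call in either, such as Vwf, are not counted. With an endothelial sum of at least 8 these were Cd86 (2.43) and Stmn1 (1.06). With the stricter sinusoidal limit they were Cyp1b1 (2.78), Fbln2 (1.02), Mgp (4.27), Tgfb2 (1.83) and Wnt2 (1.27). Without Ptprc and myeloid barcodes they were Rtn1 (0.37) and Stmn1 (0.43). Stmn1 was at 0.0094 thinned and 0.97 in the 4 high-sum clusters. In cluster 1 alone they were Btnl9 (−0.24), Cd36 (−0.0025), Cebpd (0.0685), Col15a1 (−0.11), Gata4 (0.19), Hlx (−0.069), Hspa1b (−1.81), Id2 (0.19), Il1r1 (1.08), Jag1 (−1.36), Jam3 (−0.22), Ly6c1 (−1.22), Rsad2 (−0.53), Sema3g (−0.0897), Sox17 (−0.58) and Tcf4 (−0.15). Of the other values 3961 held, 416 moved, 215 lost and 127 gained a call. Genes with few UMIs, such as Wnt9b, Aplnr and Efr3b, have wide counting intervals at this depth.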

Other observations

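Interferon-responsive genes were higher in hKO in a part of the list. Of 24 members at the floor 8 were past the fold and higher, none was lower, and 23 had a ratio above 0. Over all genes 5.19% were higher and 4.44% lower. The median log2 ratio of the list was 0.81 against −0.09 over all genes. The guanylate-binding protein gene Gbp6 had 49 UMIs in hKO and 10 in WT, 2.27 (1.27 to 3.41), Ifi44 170 in hKO and 52 in WT, 1.68 (1.23 to 2.16), and the immunity-related GTPase Iigp1 320 in hKO and 132 in WT, 1.25 (0.96 to 1.56). In the 4 high-sum clusters 6 of 24 members were higher and none lower (median 0.63), where 4.8% of all genes were higher. Iigp1 was at 0.78 there, and Gbp6 lost its call in 3 of 15 alternatives. With cluster 1 alone 5 of 22 members were higher and none lower (median 0.64). There 4.02% of all genes were higher and 7.16% lower. In sinusoidal-marker barcodes none of 18 passed (median −0.04), where 1.09% of all genes were higher and 1.14% lower. The chemokine Cxcl9, an interferon target that draws T cells, had 218 UMIs in hKO and 45 in WT, 2.25 (1.78 to 2.75), but 0.41 after thinning to 1000 UMIs. Cxcl10 had 99 UMIs in hKO and 4 in WT and was set aside.

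Of 17 MHC class I genes 1, near the 5.19% of all genes, was higher in hKO, the peptide loading factor Tapbp (1.07, and 0.82 with a mitochondrial limit of 10%), with a median of 0.36 for the list, and B2m had 1968 UMIs in hKO and 1307 in WT (0.57). Of 7 class II genes 1, H2-DMa (−1.87), was lower in hKO and 6 were past the fold but set aside, and in the 4 high-sum clusters 1 of 4 at the floor was past the fold but set aside, with a list median of 0.28 against 0.37 for class I. The class II chaperone Cd74 had 629 CPM in hKO and 4396 CPM in WT, and was a leading gene of the leukocyte-marked cluster 4. Of 15 hypoxia and glycolysis genes at the floor, 1 was past the fold and lower but set aside, and no other passed. Over all genes 4.44% were lower in hKO. Of 16 immediate early genes 3 were lower, Jun (−1.20), Jund (−1.13) and Cebpd (−1.21), and 4 were set aside. In the 4 high-sum clusters Jund was at −0.09. Of 9 glucocorticoid-responsive genes 3 were lower, Zbtb16, Fkbp5 (−1.18) and the sulfotransferase Sult1a1 (−1.48).

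Few genes of blood flow and vessel tone were past the fold, where 5.19% of all genes were higher in hKO and 4.44% lower. In the flow list 2 of 10 were higher in hKO, the lipid phosphatase Plpp3 (1.54) and the sphingosine phosphate receptor S1pr1 (1.25), and 2 were lower, the prostaglandin transporter Slco2a1 (−1.30) and Cyp1b1 (−1.12). The endothelin receptor Ednrb had 584 UMIs in hKO and 224 in WT (1.36), the 1 of 10 vasomotor genes past the fold. In the 4 high-sum clusters Ednrb and S1pr1 were both at 0.77. Among junction genes 4 of 12 were higher, with Gja1 at 1.58, and 0.31 in cluster 1 alone. Of 21 endothelial transcription factors 5 were higher and 1, near the share over all genes, was lower, Gata4 (−1.26). Clotting factor F8 had 251 UMIs in hKO and 600 in WT (−1.28), 1 of 3 sinusoidal genes that were lower in hKO of 16 at the floor, with Gata4 and Wnt2. With the stricter sinusoidal limit F8 was at −0.46 and Gata4 at −0.22.

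Barcodes that met the other limits but had over 25% mitochondrial UMIs, 53 in hKO and 67 in WT, were used in no comparison apart from the alternative limit of 50%. Igfbp3 had 26 UMIs there in hKO (318 CPM) and 1 in WT (14.3 CPM), Rspo3 29 in hKO (354 CPM) and 31 in WT (443 CPM), and Esm1 50 in hKO (611 CPM) and 45 in WT (643 CPM).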
